A study of Mus musculus with 12 samples.

Results

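The miR-99/100, let-7c and miR-125b clusters were followed through small RNA libraries of exosomes (secreted small vesicles) of primary mouse hepatocytes. The members were fixed by name: 9 of the 1965 mature miRNA names in the deposited table, namely mmu-miR-99a-5p, mmu-miR-99a-3p, mmu-miR-100-5p, mmu-miR-100-3p, mmu-miR-125b-5p with its partner arms mmu-miR-125b-1-3p and mmu-miR-125b-2-3p, and mmu-let-7c-5p with mmu-let-7c-1-3p (mmu for mouse, left out hereafter). The groups were 4 weeks of HFD (high-fat diet), 16 weeks of HFD, and lean, whose labels give the treatment as control, with 4 libraries each. The column names of the lean libraries hold NCD where those of the other groups hold HFD. All hepatocytes, lean ones included, were at passage 0, and their medium (Williams' E) held serum (FBS) and glutamax. The labels do not give the mice's strain, age or sex, how exosomes were isolated, or whether libraries of a group came from separate animals, so p-values measure the spread between these samples, which may be technical. Values are CPM, each library's counts scaled to a common total, beside the whole reads that the CPM steps give back.

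A miRNA hairpin is cut into 2 arms. Usually 1 arm, the guide, is kept by an Argonaute protein and represses messenger RNAs that match its seed, while the other, the passenger, is mostly degraded. In mammals let-7, miR-99/100 and miR-125 genes sit together in a few conserved clusters inside noncoding host genes. The 5p arms are the usual guides of all 4 hairpin kinds. The let-7 family is known for repressing growth and RAS genes, miR-99/100 for repressing mTOR signalling, and miR-125b for roles in haematopoiesis and p53 signalling.

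The mature sequences of all 9 names matched RefSeq entries on the GRCm38.p6 build. They are shown because the arms differ in their seeds (bases 2 to 8 from the 5′ end, in capitals) and thus in what they could bind. The usual guides come first.
miR-99a-5p: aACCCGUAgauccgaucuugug
miR-100-5p: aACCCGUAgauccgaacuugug
miR-125b-5p: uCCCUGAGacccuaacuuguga
let-7c-5p: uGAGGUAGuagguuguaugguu
The partner arms follow.
miR-99a-3p: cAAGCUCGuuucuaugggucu
miR-100-3p: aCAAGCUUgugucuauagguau
miR-125b-2-3p: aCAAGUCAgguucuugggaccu
miR-125b-1-3p: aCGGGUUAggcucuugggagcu
let-7c-1-3p: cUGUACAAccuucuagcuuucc
The guides of miR-99a and miR-100 share 1 seed and differ by 1 base, U16A (the miR-99a-5p base, its position from the 5′ end, then the miR-100-5p base). No 2 partner arms share a seed, and the 3p arms of the 2 miR-125b hairpins differ at 5 of 22 positions.

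The hairpins form 2 clusters on the plus strand (GRCm38 coordinates, GENCODE M21 annotation). On chromosome 16, Mir99a (chr16:77598936-77599000), Mirlet7c-1 (chr16:77599657-77599750) and Mir125b-2 (chr16:77646273-77646343) lie in introns of the noncoding gene Mir99ahg. On chromosome 9, Mir100 (chr9:41531425-41531504), Mirlet7a-2 (chr9:41536716-41536811) and Mir125b-1 (chr9:41581926-41582002) lie in introns of 3110039I08Rik, named Mir100hg in RefSeq. From the first to the last hairpin start, the clusters span 47.3 kb on chromosome 16 and 50.5 kb on chromosome 9. The names miR-125b-5p and let-7c-5p each stand for 2 hairpins, since Mirlet7c-2 (chr15:85706603-85706697, in an exon of Lncppara) encodes the same let-7c-5p.

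**Figure D1:**
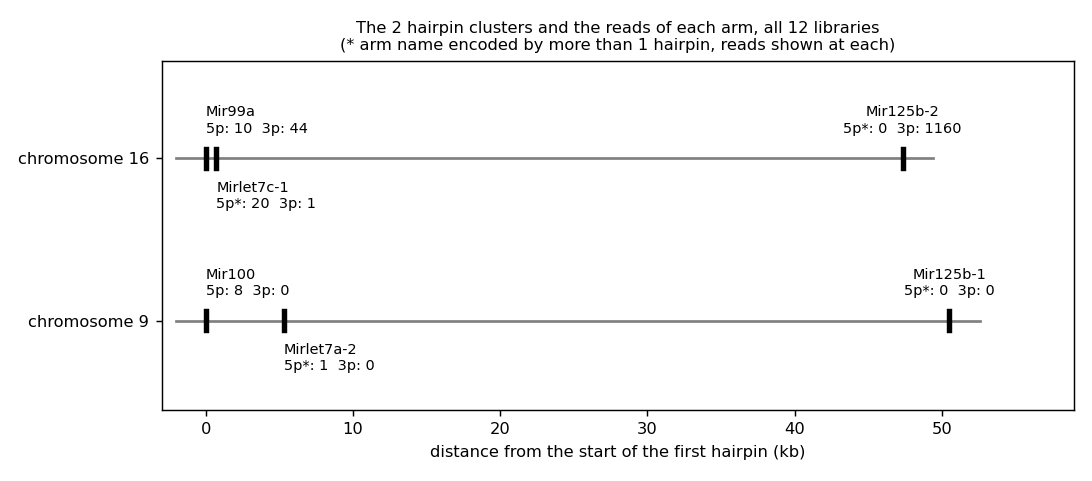
Map of the chromosome 16 and chromosome 9 clusters, with distance from the start of the first hairpin on the horizontal axis (kb) and the reads of each arm summed over 12 libraries beside each hairpin. The 1160 reads of the Mir125b-2 3p arm exceed those of every other arm drawn, and the 3 hairpins on chromosome 9 show 0 reads in each 3p arm.

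Depth was low and uneven, and it moves with the groups. The libraries held 2352 to 4477 reads at 4 weeks of HFD, 20538 to 37596 at 16 weeks and 13748 to 30430 in lean, so 1 read was worth 223 to 425 CPM at 4 weeks, 26.6 to 48.7 CPM at 16 weeks and 32.9 to 72.7 CPM in lean. Where a group has no read of a name, its level may still reach 213 CPM at 4 weeks, 27.1 CPM at 16 weeks and 36.2 CPM in lean (3 reads over the group; counting error only). CPM are shares of a total that miR-101b-3p dominated, with 25.2% ± 9.01 at 4 weeks, 60.4% ± 6.77 at 16 weeks and 61.9% ± 6.37 in lean (SD, n = 4 each). The table's own name calls its miRNAs unique mouse ones and does not say what that leaves out, so a name at or near 0 here need not be missing from the exosomes. Of 9 listed hepatocyte names, miR-101b-3p had 124018 reads in 12 libraries, miR-802-3p had 1817 and miR-192-5p had 149. Each of the others had at most 3, miR-122-5p among them.

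The 9 names together held 1243 reads, and 1 passenger arm, miR-125b-2-3p, held 93.3% of them. The other 8 names shared 83 reads. Names that only the chromosome 16 hairpins encode took 1215 reads (57 at 4 weeks, 759 at 16 weeks and 399 in lean). Names that only the chromosome 9 hairpins encode took 8 reads (1 at 4 weeks, 5 at 16 weeks and 2 in lean), all of them miR-100-5p. The names encoded at 2 hairpins took 20 reads, all of them let-7c-5p. At 0 in all 12 libraries were miR-125b-5p, the usual guide of both miR-125b hairpins, miR-125b-1-3p and miR-100-3p.

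**Figure D2:**
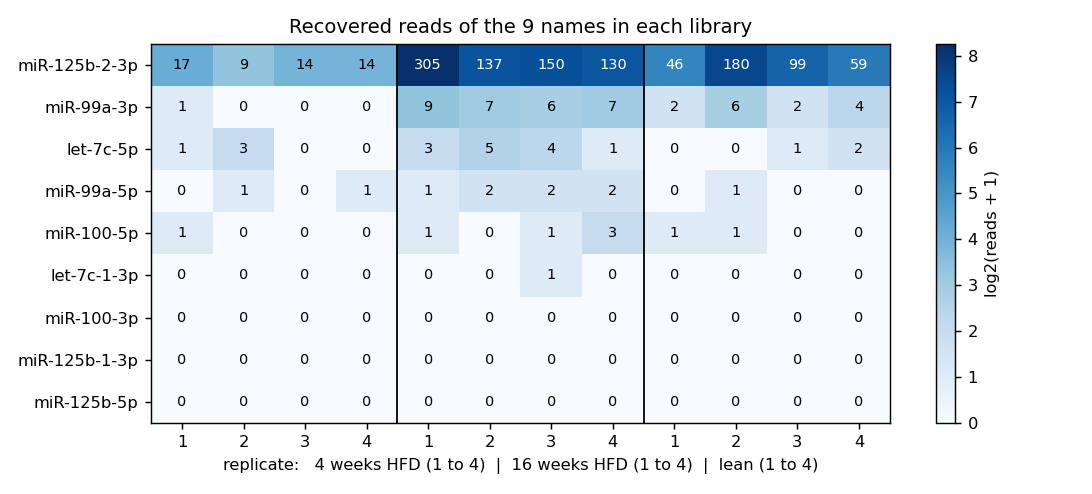
Recovered reads of each of the 9 names (rows) in each of the 12 libraries (columns, 4 a group), coloured by log2(reads + 1). The top row, miR-125b-2-3p, runs from 9 to 305 reads, and no other cell exceeds 9.

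The arms of the hairpins split in opposite ways. For miR-125b-2, the 3p arm had 54 reads at 4 weeks, 722 at 16 weeks and 384 in lean, each beside 0 of miR-125b-5p. A 5p count of 0 allows a share of up to 5.56% at 4 weeks, 0.416% at 16 weeks and 0.781% in lean. These limits cover counting error only and assume that reads of miR-125b-5p, encoded at 2 hairpins, were counted under its name. Whether they were is not given in the sources used here. For miR-99a the 3p arm, miR-99a-3p, was also the larger, with 44 of 54 reads (81.5%, exact 95% interval 68.6 to 90.7%), and it led in 9 of 12 libraries. By group it held 1 of 3 reads at 4 weeks, 29 of 36 at 16 weeks (80.6%, 64.0 to 91.8%) and 14 of 15 in lean (93.3%, 68.1 to 99.8%). The last 2 intervals overlap, and 3 reads at 4 weeks give no usable share. In let-7c and miR-100 the usual guide led instead. The 5p arm let-7c-5p had 20 reads against 1 of let-7c-1-3p, and miR-100-5p had 8 against 0 of miR-100-3p.

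A lone arm was common in this table. Of 658 hairpins with a 5p and a 3p name, 47 had at least 100 reads, and in 15 of these (31.9%) one arm was at 0. It was the 5p arm in 12 and the 3p arm in 3. The leading arm held a median of 99.2% of the reads over the 47 hairpins. Among the 18 hairpins with at least as many reads as Mir125b-2, 4 had an arm at 0, counting Mir125b-2 itself. Another of the 4 also kept its usual passenger, with 2092 reads of miR-24-2-5p beside 0 of miR-24-3p. That guide too is encoded at more than 1 hairpin. The remaining cases were Mir92-2, with 2257 reads of miR-92a-3p beside 0 of miR-92a-2-5p, and Mir872. Mir872 had 1414 reads of miR-872-5p beside 0 of miR-872-3p. The kept arm miR-92a-3p is itself encoded at more than 1 hairpin. Only the table's names matched to RefSeq mature sequences could be sorted by their number of hairpins. Of these, 11 of 53 names encoded at 2 or more hairpins were above 0 (20.8%), against 544 of 1621 names encoded at 1 (33.6%). At least 100 reads were held by 1 of these 53 (1.89%), miR-92a-3p with 2257, and by 62 of the 1621 (3.82%). Whether the number of hairpins bears on an arm at 0 was not tested. What the counting did with reads that match several places is not given in the sources used here.

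**Figure D3:**
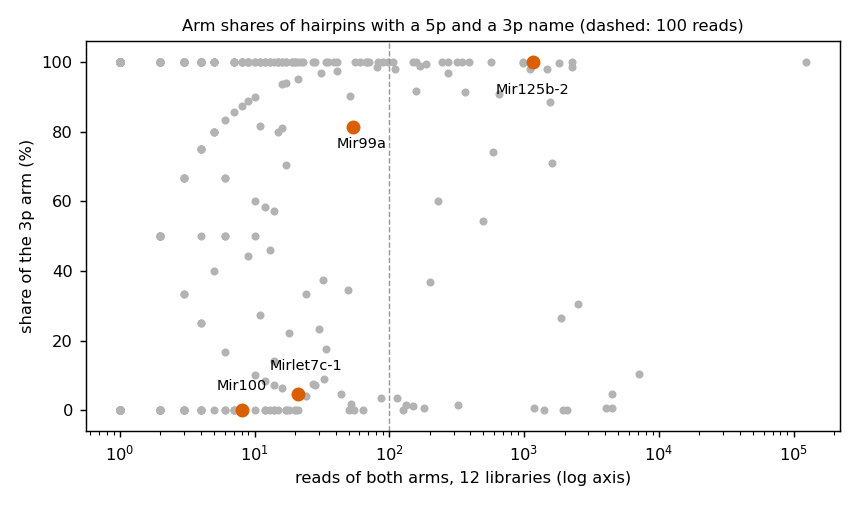
Share of the 3p arm (vertical axis, %) against the reads of both arms over 12 libraries (log axis) for every hairpin with a 5p and a 3p name and at least 1 read. Mir125b-2 sits at 100% with 1160 reads, Mir99a at 81.5% with 54, and Mir100 and Mirlet7c-1 sit near the bottom with 8 and 21 reads.

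The level of miR-125b-2-3p could be compared between groups. By mean CPM it ranked 28 at 4 weeks, 20 at 16 weeks and 23 in lean among all names. It stood at 4360, 3827, 3127 and 4198 CPM in the 4-week libraries, at 8113, 4681, 6417 and 6330 CPM in the 16-week libraries, and at 3346, 5915, 4137 and 4022 CPM in the lean libraries. All 16-week libraries lay above all 4-week ones, while lean overlapped both. The 4-week values rest on only 17, 9, 14 and 14 reads. Group means were 3878 ± 548 CPM at 4 weeks, 6385 ± 1402 at 16 weeks and 4355 ± 1097 in lean (SD, n = 4 each). The order was thus 16 weeks, lean, 4 weeks, and the libraries of each pair of neighbours overlapped.

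With limma on log2(CPM + 200), miR-125b-2-3p passed the threshold (adjusted p under 0.05 over 151 miRNAs tested) in none of the 3 comparisons. At 4 weeks against lean the log2 difference was -0.14 (SE 0.34, 95% interval -0.85 to 0.57, limma adjusted p = 0.744). At 16 weeks against lean it was 0.54 (SE 0.34, -0.18 to 1.25, limma adjusted p = 0.323). At 16 against 4 weeks it was 0.68 (SE 0.34, -0.04 to 1.39, limma adjusted p = 0.169). Of the 9 names 3 passed the filter of 100 CPM in at least 4 libraries (miR-125b-2-3p, miR-99a-3p and let-7c-5p), and 0 of these 3 were called in any comparison. Over all 151 miRNAs, the 4-week comparison with lean had 33 called higher (21.9%) and 18 lower (11.9%). The 16-week comparison with lean had 9 higher (5.96%) and 4 lower (2.65%). Between the HFD times 13 were higher (8.61%) and 22 lower (14.6%) at 16 weeks. The median log2 difference of the 3 tested members was -0.14, beside 0.04 over all 151, in the first comparison, 0.39 beside -0.06 in the second and 0.68 beside -0.12 in the third.

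The difference between 16 and 4 weeks depended on how libraries were scaled. With edgeR on the recovered reads it was 1.25 on the log2 scale and passed (edgeR adjusted p = 0.0121; 41.7% of 72 miRNAs called). With TMM factors on the CPM it was 1.48 (limma adjusted p = 0.00316; 23.6% called), and DESeq2 gave 1.11 (DESeq2 adjusted p = 0.00813; 5.73% of 611 called). On the deposited CPM, 9.93% of the miRNAs tested were higher in all 16-week libraries than in all 4-week ones, as miR-125b-2-3p was. The share of miR-101b-3p moved with these groups, as given above, and the CPM were therefore also recomputed without it. Levels of miR-125b-2-3p were then 5186 ± 409 at 4 weeks, 16458 ± 4847 at 16 weeks and 11734 ± 3607 in lean (SD, n = 4 each).

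On that scale the 4-week libraries stood lowest, without overlap with either other group. Against lean, miR-125b-2-3p fell by 1.10 on the log2 scale at 4 weeks (SE 0.38, limma adjusted p = 0.0346; 28.7% of 237 miRNAs called). Between 16 and 4 weeks the difference was 1.59 (SE 0.38, limma adjusted p = 0.00634; 15.6% called). The median over the 237 miRNAs tested was -0.39 in the comparison of 4 weeks with lean and 0.27 in that of 16 with 4 weeks. The deposited CPM gave 0.04 and -0.12 over 151, so these medians cover different sets of miRNAs. The overlap was counted over the 150 miRNAs besides miR-101b-3p that passed the filter on the deposited CPM. After the recomputation, 20% of these were lower in all 4-week libraries than in all lean ones. In all 16-week libraries 17.3% were higher than in all 4-week ones. At 16 weeks against lean it was 0.49 without miR-101b-3p (limma adjusted p = 0.457; 13.5% called), 0.65 with TMM factors (limma adjusted p = 0.199; 16.9% called), 0.55 with edgeR (adjusted p = 0.231; 34.7% called) and 0.17 with DESeq2 (adjusted p = 0.720; 5.89% called), none of them a call. Both edgeR at 4 weeks against lean (-0.69, adjusted p = 0.118; 55.6% called) and TMM factors (-0.83, limma adjusted p = 0.0658; 32.6% called) missed the threshold, and DESeq2 passed it (-0.94, adjusted p = 0.0255; 8.35% called). Without lean replicate 2, which held the highest lean value, the difference at 4 weeks against lean on the deposited CPM was 0.01.

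**Figure D4:**
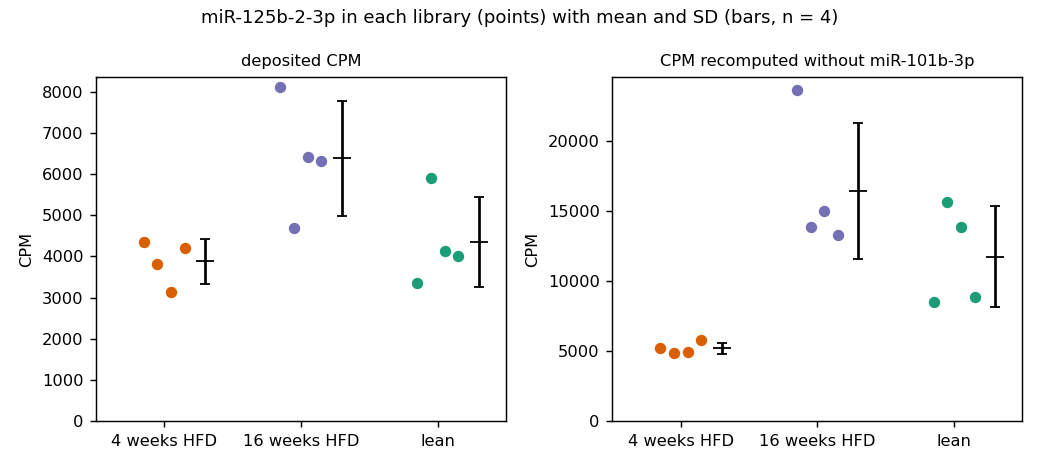
CPM of miR-125b-2-3p (vertical axes) in each library (points) with mean and SD (bars, n = 4), as deposited and recomputed without miR-101b-3p. The 4-week points (3127 to 4360 CPM as deposited) overlap the lean points on the left and lie below all other points on the right.

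**Figure D5:**
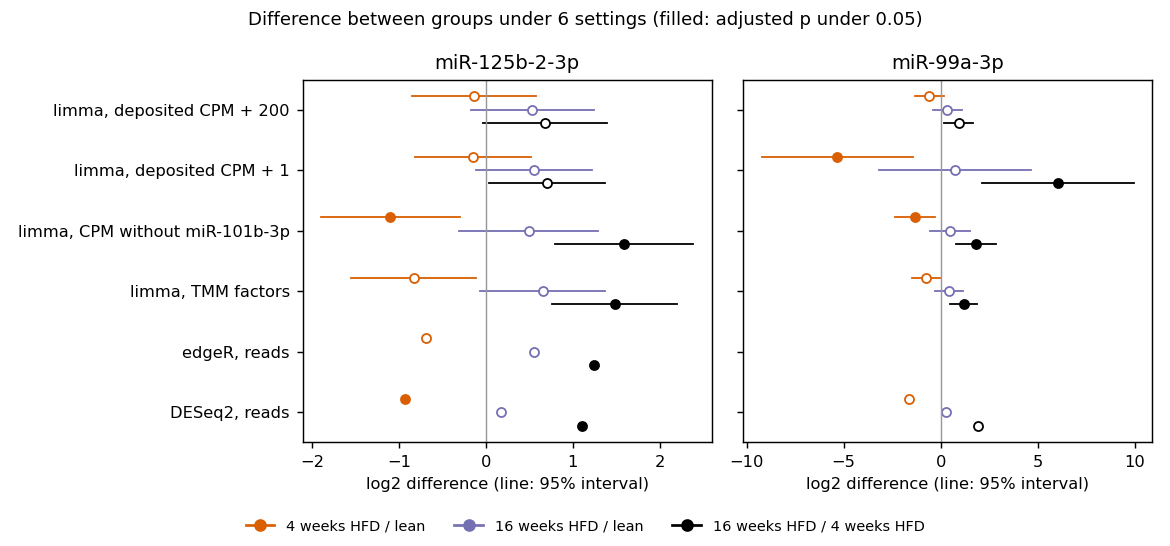
Log2 difference of miR-125b-2-3p and miR-99a-3p between groups (horizontal axes, tested over its comparison group as named in the legend) under 6 settings, with 95% intervals for limma and filled points at an adjusted p under 0.05. Points of 16 weeks against lean are open in every setting drawn, while those that involve the 4-week libraries change between open and filled, and edgeR did not test miR-99a-3p.

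The passenger arm miR-99a-3p is encoded in the same host gene as miR-125b-2-3p. It had 1, 0, 0 and 0 reads at 4 weeks, 9, 7, 6 and 7 at 16 weeks, and 2, 6, 2 and 4 in lean. In CPM this was 256 in 1 library and 0 in 3 at 4 weeks, 239 to 341 at 16 weeks and 83.6 to 273 in lean. The 16-week libraries overlapped the lean ones, and at 4 weeks 1 read alone was worth about the highest lean value. Group means were 64.1 ± 128 CPM at 4 weeks, 269 ± 48.6 at 16 weeks and 175 ± 80.1 in lean (SD, n = 4 each). Pooled over each group's reads, exact Poisson 95% intervals were 1.80 to 396 CPM at 4 weeks, 175 to 376 at 16 weeks and 92.5 to 284 in lean, each overlapping the others. With 1 read in 4 libraries, the 4-week level is hardly bounded.

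In limma, miR-99a-3p differed by -0.58 between 4 weeks and lean (SE 0.35, adjusted p = 0.221), by 0.34 between 16 weeks and lean (SE 0.35, adjusted p = 0.584) and by 0.93 between 16 and 4 weeks (SE 0.35, adjusted p = 0.0647). Without miR-101b-3p in the total the difference between 4 weeks and lean was called (-1.32, limma adjusted p = 0.0495), which it was not with TMM factors (-0.74, limma adjusted p = 0.0951) or DESeq2 (-1.64, adjusted p = 0.291). The difference between 16 and 4 weeks crossed the threshold with TMM factors (1.18, limma adjusted p = 0.0159) and without miR-101b-3p (1.80, limma adjusted p = 0.0129). DESeq2 did not call it (1.94, adjusted p = 0.232). With a pseudocount of 1 CPM, which stretches differences from 0, the log2 differences were -5.33 at 4 weeks against lean (limma adjusted p = 0.0408; 33.1% called) and 6.06 between 16 and 4 weeks (limma adjusted p = 0.0315; 16.6% called), while 16 weeks against lean gave 0.73 (limma adjusted p = 0.882; 5.3% called). Leaving out 4-week replicate 1, which holds the group's single read, also led to a call between 4 weeks and lean (-0.88, limma adjusted p = 0.0427; 31.9% of 144 miRNAs called) and between 16 and 4 weeks (1.22, limma adjusted p = 0.0102; 26.4% called), and to none between 16 weeks and lean (9.03% called).

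Set against its neighbour, miR-99a-3p was the minor arm in each group. It made up 1.82% of the reads of the 2 chromosome 16 passenger arms at 4 weeks (1 of 55, exact 95% interval 0.0460 to 9.72%), 3.86% at 16 weeks (29 of 751, 2.60 to 5.50%) and 3.52% in lean (14 of 398, 1.94 to 5.83%). The intervals overlap and cover counting error only, the difference was not tested, and the 4-week share rests on 1 read. This ratio does not depend on how the libraries were scaled.

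The guide arm miR-99a-5p had 0, 1, 0 and 1 reads at 4 weeks, 1, 2, 2 and 2 at 16 weeks and 0, 1, 0 and 0 in lean. Its pooled level was 142 CPM at 4 weeks (exact Poisson 95% interval 17.2 to 514), 63.2 at 16 weeks (25.4 to 130) and 12.1 in lean (0.306 to 67.3), with intervals that overlap. Its near twin miR-100-5p, from chromosome 9, had 1, 0, 0 and 0 reads at 4 weeks, 1, 0, 1 and 3 at 16 weeks and 1, 1, 0 and 0 in lean. The pooled intervals of miR-100-5p were 1.80 to 396 CPM, 14.7 to 105 CPM and 2.93 to 87.3 CPM at 4 weeks, 16 weeks and lean, in that order. Neither guide reached the filter, and no difference between groups was detectable. A single base separates these guides, so the split of reads between them is uncertain.

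The guide let-7c-5p, a member of the let-7 family of growth repressors, had 1, 3, 0 and 0 reads at 4 weeks, 3, 5, 4 and 1 at 16 weeks and 0, 0, 1 and 2 in lean. In CPM, 4-week replicate 2 reached 1276, the other 4-week libraries 0 to 256, the 16-week libraries 48.7 to 171 and the lean libraries 0 to 136. The 4-week group thus held both the highest value and libraries at 0. Group means were 383 ± 607 CPM at 4 weeks, 118 ± 62.9 at 16 weeks and 44.5 ± 64.3 in lean (SD, n = 4 each). The limma difference was 0.76 between 4 weeks and lean (SE 0.48, adjusted p = 0.228), 0.39 between 16 weeks and lean (SE 0.48, adjusted p = 0.627) and -0.37 between 16 and 4 weeks (SE 0.48, adjusted p = 0.638). Without 4-week replicate 2 the first was 0.14 (limma adjusted p = 0.775) and the last turned to 0.25 (limma adjusted p = 0.591). Its partner let-7c-1-3p had 1 read, in 16-week replicate 3.

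The rest of these families was nearly empty. The third cluster of the same kind, with miR-99b, let-7e and miR-125a, and the chromosome 9 arm let-7a-2-3p gave 0 reads for 7 names, so 0 could be tested. Of 17 listed names of other let-7 family arms, 3 were above 0 and 2 were tested, and limma called 0 of these 2 in each comparison on the deposited CPM. DESeq2 called miR-98-3p lower at 16 weeks than in lean (-2.22, adjusted p = 0.0200), where limma gave -1.11 (adjusted p = 0.210). The passenger miR-98-3p averaged 427 ± 376 CPM at 4 weeks, 226 ± 130 at 16 weeks and 834 ± 620 in lean (SD, n = 4 each), from 97 reads. The other tested name, let-7j, had 3 reads at 4 weeks, 14 at 16 weeks and 3 in lean. The family's usual guide let-7a-5p had 1 read.

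The seed of the undetected miR-125b-5p was carried by another name. A search of the RefSeq mature sequences for each member's seed found 4 other listed names with that of miR-125b-5p, among them miR-125a-5p, and 1 of the 4 was above 0. It was miR-351-5p of chromosome X (chrX:53053315-53053338, minus strand), shown because it has the same seed and then departs from it.
miR-351-5p: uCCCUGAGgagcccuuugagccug
It had 4491 reads, and stood at 48982 ± 26580 CPM at 4 weeks, 28222 ± 15144 at 16 weeks and 13021 ± 10549 in lean (SD, n = 4 each). On the deposited CPM it was called higher at 4 weeks than in lean (2.04 on the log2 scale, limma adjusted p = 0.00262), and all 4-week libraries lay above all lean ones, as for 17.2% of the miRNAs tested. Without miR-101b-3p in the total it stood at 64164 ± 28536 at 4 weeks, 68143 ± 25098 at 16 weeks and 32111 ± 20940 in lean (SD, n = 4 each), the 4-week and lean libraries overlapped, and the difference of 1.07 missed the threshold (limma adjusted p = 0.0511). It passed with TMM factors (1.31, limma adjusted p = 0.0240), edgeR (1.60, adjusted p = 0.00580) and DESeq2 (1.31, adjusted p = 0.0183). It was chosen after its values were seen. For the let-7c-5p seed, 1 of 10 other names was above 0, with 1 read, and miR-125b-2-3p shared its seed with no other listed name.

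Levels of the members were set beside markers of other cells that a hepatocyte culture can hold, since miR-125b, miR-99a and miR-100 are abundant in fibroblasts and stellate cells. Of 9 stellate cell and fibroblast names, 1 was above 0, with 1 read in 12 libraries, and miR-143-3p, miR-145a-5p, miR-199a-3p and miR-214-3p were at 0. The hepatocyte names miR-148a-3p and miR-101a-3p were at 0 too, so a marker at 0 here says little about a cell type. Of 2 endothelial names, 1 was above 0, also with 1 read. Of 10 leukocyte names, 5 were above 0, with a summed level of 22560 to 44678 CPM at 4 weeks, 42210 to 68566 at 16 weeks and 7107 to 38560 in lean, and miR-223-3p was at 0. The part of leukocytes in the level of miR-125b-2-3p was not tested. The sum includes miR-155-5p, whose values are not whole reads. Of the 5 leukocyte names tested, miR-146a-5p was called higher in both comparisons with lean, and between 16 and 4 weeks miR-511-3p was called higher and miR-155-5p lower. The median log2 difference of these 5 was 0.03 at 4 weeks against lean and -0.22 at 16 weeks against lean. Over all miRNAs tested it was 0.04 and -0.06. Between 16 and 4 weeks the median was 0.69, beside -0.12 over all. The call of miR-511-3p (1.36, limma adjusted p = 0.0418) was kept in 6 of the 12 fits that left out 1 library. Of 5 cholangiocyte and epithelial names, 3 were above 0 with 26 reads in all. Of the 2 tested, miR-200a-3p (8 reads) was called higher at 4 weeks than in lean and lower at 16 than at 4 weeks. It had 6 reads at 4 weeks, 2 at 16 weeks and 0 in lean, and passed the filter only through the 4-week libraries. There 1 read was worth 223 CPM or more, so neither call is evidence of a difference. It was tested in only 8 of the 12 fits that left out 1 library. Of 4 red blood cell names, 2 were above 0 with 3 reads in miR-451a, and none was tested. Of 9 hepatocyte names, 7 were above 0 and 3 tested, and miR-101b-3p and miR-802-3p were called lower at 4 weeks than in lean and higher at 16 than at 4 weeks. The other tested name, miR-192-5p, was called in no comparison, and its difference at 4 weeks against lean was 0.81 (limma adjusted p = 0.205). It averaged 571 ± 222 CPM at 4 weeks, 1118 ± 633 at 16 weeks and 238 ± 120 in lean (SD, n = 4 each). These shares measure neither the number of vesicles nor the RNA in each.

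Among 148 other tested miRNAs, those whose log2(CPM + 200) followed miR-125b-2-3p most closely over the 12 libraries were miR-802-3p (Pearson r = 0.79), miR-582-3p (0.74), miR-300-3p (0.70), miR-299a-3p (0.69) and miR-16-1-3p (0.67). The median r over the 148 was -0.02. The cluster neighbour miR-99a-3p had an r of 0.62. These libraries share groups, depth and a dominant miRNA, so r is a description. The values of miR-300-3p and miR-299a-3p are not whole reads, and miR-582-3p and miR-16-1-3p average 157 and 121 CPM. For let-7c-5p, second among the members by mean CPM (182, against 169 for miR-99a-3p) though not by reads (20 against 44), the closest were miR-1839-3p (0.74), miR-1927 (0.68), miR-187-5p (0.67), miR-217-5p (0.64) and miR-450b-3p (0.63), too sparse to read further.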

How the data were processed

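Small RNA of 12 exosome libraries was measured. The deposited table gives CPM, which the authors computed per library from miRNA reads; cutadapt 1.13, edgeR 3.16.5 and mm10 are named per the submitters' processing notes. Aligner and miRNA annotation are not given in the sources used here. Each column's CPM step gave whole reads for 98.2% of 2664 values above 0 (relative tolerance 1e-06); 7 miRNAs, none of them a member, hold other values and stayed out of the count tests. All 12 libraries entered 1 limma 3.58.1 fit (R 4.3.3) on log2(CPM + 200), with a variance trend; names had to reach 100 CPM in 4 or more libraries; p-values were adjusted by Benjamini-Hochberg, 2-sided. The pseudocount is near 1 read of the shallow libraries; differences are on the log2(CPM + 200) scale, which understates changes of low names. Alternatives were other pseudocounts, filters and scalings, edgeR 4.0.16 (quasi-likelihood), DESeq2 1.42.0 and leaving out each library. The limma and edgeR fits were also run on simulated data. The simulated CPM were scaled so that planted changes did not shift the other miRNAs, so they do not bear on the choice of scaling. Members, lists and tests were chosen with earlier results of these data known. Named beyond the members were up to 4 leading names of each list and the 5 miRNAs most alike to the 2 members highest in mean CPM. Intervals and floors cover counting error only.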

Additional observations from a re-analysis of the deposited data

Results flagged for a closer look

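In 4 of 16 sets of 4 libraries with values that differ, the highest library stood apart from the other 3. Each was a single read beside 3 libraries at 0, a pattern that Dixon's ratio always marks, so the usual rate of about 1 in 20 by chance does not apply and the number of such sets says nothing beyond the low depth. These were miR-99a-3p in 4-week replicate 1 (256 CPM), miR-100-5p in 4-week replicate 1 (256 CPM), miR-99a-5p in lean replicate 2 (32.9 CPM) and let-7c-1-3p in 16-week replicate 3 (42.8 CPM).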

How the results depend on the processing

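At 16 weeks against lean, the 13 calls over all miRNAs became 8 with a pseudocount of 1 CPM, 7 without a filter, 32 without miR-101b-3p, 30 with TMM factors, 43 in a fit of the 2 groups only, 25 with edgeR and 36 with DESeq2, and 8 to 23 on leaving out 1 library (8 without 16-week replicate 3 or 4 or lean replicate 2, 23 without lean replicate 4). At 16 against 4 weeks, 35 calls became 19 to 39 on leaving out 1 library (19 without 16-week replicate 1). At 4 weeks against lean, 51 calls became 42 to 54 on leaving out 1 library and 40 (edgeR) to 68 (without miR-101b-3p) under the other settings. Without miR-101b-3p the splits were 19 higher and 49 lower there (33 and 18 on the deposited CPM), 14 and 18 at 16 weeks against lean (9 and 4) and 26 and 11 at 16 against 4 weeks (13 and 22). A replicate block gave 52, 14 and 37 calls at 4 weeks against lean, 16 weeks against lean and 16 against 4 weeks, and changed no call of a member. The libraries share only a number: 2 of 12 correlations of same-numbered libraries' deviations exceeded 0.1, and in 3 of 24 comparisons a library correlated best with its own number.

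For miR-125b-2-3p at 4 weeks against lean, a call appeared without miR-101b-3p (-1.10) and with DESeq2 (-0.94), and leaving out 1 library gave -0.25 to 0.01 (0.011 without lean replicate 2). At 16 against 4 weeks it was called without miR-101b-3p (1.59), with TMM factors (1.48), edgeR (1.25) and DESeq2 (1.11), and leaving out 1 library gave 0.56 to 0.81 with no call. For miR-99a-3p at 4 weeks against lean, a call appeared with a pseudocount of 1 CPM (-5.33, set by libraries at 0) and without miR-101b-3p (-1.32), and leaving out 1 library gave -0.88 to -0.46. At 16 against 4 weeks it was called with pseudocounts of 1 CPM (6.06) and 50 CPM (2.01), without miR-101b-3p (1.80) and with TMM factors (1.18), and leaving out 1 library gave 0.83 to 1.22. For let-7c-5p at 16 against 4 weeks, the sign turned with a pseudocount of 1 CPM (2.12) and without miR-101b-3p (0.15), and leaving out 1 library gave -0.71 to 0.25. Apart from the scalings and pseudocounts named, the cause was not tested. The count test with edgeR tested miR-125b-2-3p only, and a fit of 2 groups left let-7c-5p under the filter in both comparisons with lean. Depth limits all 4-week values.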
